A study of Mus musculus with 6 samples.

Results

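The array used in this study carries 16251 probes for long intergenic noncoding RNAs (lincRNAs), laid out over 4622 locations. The probes described here were chosen by detection: 3784 of them (23.3%), at 2110 locations, were flagged by the scanner software as well above background in every one of the 3 arrays of a group, in 1 group or both. The other probes on the array, mostly for protein-coding transcripts, passed the same filter more often (20458 probes, 51.9%). RNA came from cultured lung fibroblasts of mice labelled Mmp19 knockout (3 samples) or wild type (3 samples). Mmp19 encodes a secreted matrix metalloproteinase. All mice were labelled female and 11 weeks old, and all had been given 0.08 units of intratracheal bleomycin, which causes lung injury and then fibrosis. Cells were taken on day 21 and kept in culture for 72 hours. The study has no group without bleomycin, and the strain and the construction of the deleted allele are not given in the sources used here.

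Long noncoding RNAs are transcripts that are not translated into protein. Some act where they are made: Xist coats the X chromosome from which it is transcribed and silences it in female cells, and Kcnq1ot1 silences neighbouring imprinted genes. Others serve elsewhere in the nucleus, such as Neat1, the scaffold of paraspeckles, and Malat1, a transcript of nuclear speckles. Most lincRNA probes on this array are named only by a genome interval and a strand (F or R), and the intervals below are on mouse build mm9, as the file headers give it.

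The probe sequences and an mm9 genome were not used here, so no member's own sequence is shown. The probes with the largest difference between the groups belong to XIST, and the start of that gene is given to place the measurement. The RefSeq promoter of Xist (GRCm38.p6, chrX:103483184-103483483, minus strand) is printed 5′ to 3′, with the 50 bases after the transcription start in capitals.
Xist: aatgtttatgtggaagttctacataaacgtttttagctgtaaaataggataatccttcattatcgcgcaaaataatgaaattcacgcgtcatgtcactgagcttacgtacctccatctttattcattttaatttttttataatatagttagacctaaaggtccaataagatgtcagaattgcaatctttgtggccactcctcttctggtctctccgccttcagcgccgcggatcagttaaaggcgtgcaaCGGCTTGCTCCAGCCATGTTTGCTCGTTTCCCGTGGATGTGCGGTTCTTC

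Values are log2 processed signals minus each array's own 75th percentile, so 0 is the signal at that percentile, and a difference is knockout minus wild type on this log2 scale. Between 21.7% and 35.8% of lincRNA probes were well above background on an array, and the 75th percentile lay between 138 and 328 signal units. The Mmp19 probe was at -5.93 ± 0.65 (SD, n = 3) on the knockout arrays, where it was not well above background, and at -1.31 ± 1.20 (SD, n = 3) on the wild-type arrays. The knockout level was lower by a factor of at least 5.33-fold (adjusted p = 0.0160 in limma). Adjusted p was 0.0773 without wild-type replicate 3 and 0.0899 without knockout replicate 3. Of 10 fibroblast markers 8 were above background on all 6 arrays, and 2 were higher in the knockout. Of 7 mesothelial markers 3 were above background on all 6 arrays, and 5 were higher in the knockout. By the same limma test 2.88% of all probes tested were higher. The summed linear level of the mesothelial list was 38.0 to 101 times the scaling percentile on knockout arrays. On wild-type arrays it was 2.03 to 16.4 times. None of the epithelial (4 tested), endothelial (3 tested) or macrophage markers (2 tested) passed in either direction. The summed macrophage level was 108 on knockout replicate 1 and 44.8 to 66.6 on the other arrays. Wild-type replicate 2 correlated with the other wild-type arrays at 0.888 and 0.905 over the lincRNA probes, against 0.966 between those 2.

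Among the 3784 lincRNA probes, 194 passed an adjusted p of 0.05 in limma (5.13%), beside 4.65% of all 24242 probes tested and 4.56% of the other probes. Of these 65 were higher in the knockout (1.72%, against 2.88% of all probes and 3.09% of the other probes) and 129 were lower (3.41%, against 1.77% of all probes and 1.47% of the other probes). Thus 66.5% of the lincRNA calls were lower in the knockout, while 32.3% of the 933 calls among the other probes were. A probe detected in only 1 group had to differ to some extent, so the same counts were taken over the 2867 lincRNA probes above background on all 6 arrays. There 91 passed (3.17%, beside 3.37% of all such probes and 3.4% of the other ones). Of these 25 were higher (0.872%, against 2.31% of all and 2.53% of the other probes) and 66 were lower (2.3%, against 1.07% and 0.87%). The median difference over the members was -0.01, and over all probes tested it was 0.07. With the slide as a block, 58 lincRNA probes passed (1.53%, beside 1.61% of all probes), 19 higher (0.502%, beside 0.945%) and 39 lower (1.03%, beside 0.664%). Of the 194 calls, 18 higher and 35 lower ones were among those 58.

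Tested probes were split into 4 equal bins by mean signal, a split chosen after the values were seen. The dimmest bin held 113 of the 194 lincRNA calls, 43 higher and 70 lower. There lower calls were 3.81% of lincRNA probes and 3.53% of other probes, and higher calls were 2.34% and 4.50%. In the other 3 bins lower calls were 2.79%, 3.53% and 3.11% of lincRNA probes, against 1.68%, 0.815% and 0.428% of other probes. The lincRNA calls were lower in 61.9%, 70.2%, 82.6% and 63.6% of cases from the dimmest to the brightest bin. For the other probes the shares were 44.0%, 34.7%, 19.4% and 19.8%. The share of lincRNA calls that were lower ranged from 62.2% to 75.8% across the other ways of scaling the arrays, and was 77.9% with normexp background correction. It fell to 23.5% of 17 calls without wild-type replicate 3, beside 24% of the calls among other probes, and to 30.8% of 13 calls with no filter on dim probes, beside 28%. With limma's default array weights, which stopped without converging, it was 47.3% of 2419 calls, beside 49.1%. With gene-by-gene weights it was 57.0% of 978 calls, beside 46.1%. The contrast between the 2 kinds of probe was therefore not seen under every setting. No test of the difference between the 2 kinds of probe was made.

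**Figure D1:**
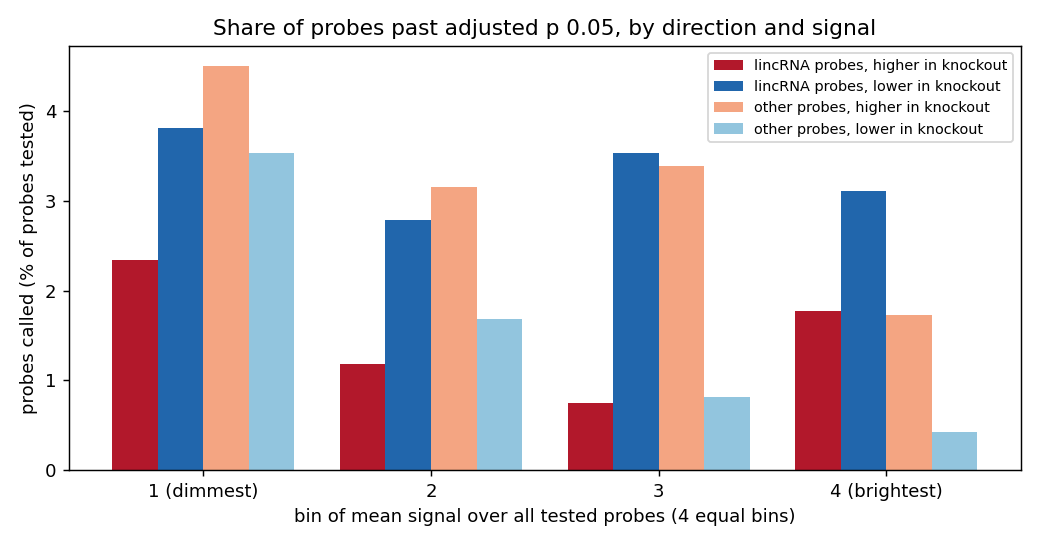
Share of tested probes past an adjusted p of 0.05 (y axis, percent) in each of 4 equal bins of mean signal (x axis), for lincRNA probes and all other probes, by direction. Among lincRNA probes the bar for lower exceeds the bar for higher in all 4 bins, and among the other probes the bar for higher exceeds the bar for lower in all 4.

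XIST gave the largest differences of all lincRNA probes, and its 5 probes stood in the first 5 places. A_30_P01023652 was at 2.35, 1.39 and 2.19 on the knockout arrays and at -4.92, -5.38 and -4.65 on the wild-type arrays. The groups were far apart, and on the wild-type arrays no XIST probe exceeded background clearly enough to be flagged. The knockout signal of this probe was at least 52.6-fold higher (difference 6.96 ± 0.33 SE, limma adjusted p = 0.00130). The other 4 probes were at least 11.7-fold to 28.3-fold higher, and all 5 passed under every alternative in which they were tested and with the slide as a block, where adjusted p lay between 0.0245 and 0.0270. Both Xist probes outside the lincRNA set were also higher, A_52_P113537 by 5.02 and A_52_P300376 by 2.62.

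Since all samples were labelled female, genes of the Y chromosome were set beside XIST. Of a list of 5 sex chromosome genes, 3 passed the detection filter, namely Xist, Eif2s3y and Ddx3y. The rest of the list did not pass it, and 1 of the 5 was above background on 0 arrays. Eif2s3y, a Y-linked translation factor gene, was at 2.19, -1.77 and 0.67 on the knockout arrays and at 2.92, 4.18 and 3.62 on the wild-type arrays, and was above background on all 6. Ddx3y, a Y-linked RNA helicase gene, was at -1.41 ± 1.68 (SD, n = 3) on the knockout arrays and at 1.07 ± 0.52 (SD, n = 3) on the wild-type arrays. Neither passed the test (limma adjusted p = 0.112 and 0.139). For each of them all 3 wild-type arrays exceeded all 3 knockout arrays, as at 10.6% of all probes with values on 6 arrays. The 3 wild-type arrays, with Y-linked signal and no detected XIST, go against their label of female, and the knockout arrays carried both XIST and some Y-linked signal. Genotype and the sex of the cells cannot be told apart in any comparison made here. Leaving out the 5 XIST probes, 60 lincRNA probes were higher in the knockout.

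**Figure D2:**
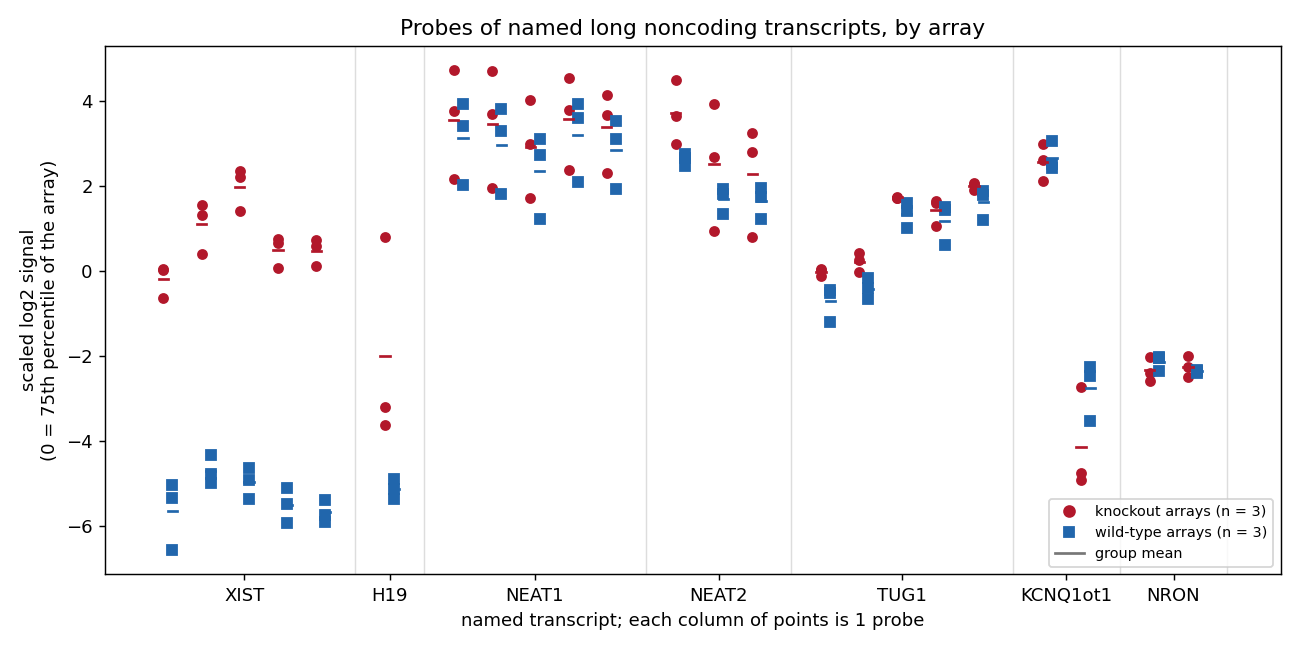
Scaled log2 signal (y axis, 0 is the array's 75th percentile) of every member probe carrying a transcript name, 1 column per probe, with knockout arrays as circles, wild-type arrays as squares and group means as short lines. The groups are separated in all 5 XIST columns, while they overlap in all 5 columns of NEAT1 and both columns of NRON.

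No member probe of the other named transcripts passed. NEAT1 was bright on all arrays, and A_30_P01020135 was at 4.72, 2.15 and 3.76 on the knockout arrays and at 3.93, 2.01 and 3.41 on the wild-type arrays. All 5 NEAT1 probes were lowest on replicate 2 of each group, and their differences lay between 0.36 and 0.55 with limma adjusted p of 0.647 or more. That fit did not pair the arrays of a slide. Within slides, knockout minus wild type was positive at all 5 NEAT1 probes. It ran from 0.62 to 1.04 on slide 1, 0.14 to 0.49 on slide 2 and 0.16 to 0.41 on slide 3. NEAT2, which RefSeq lists as a synonym of Malat1, differed by 0.64, 0.82 and 1.08 at its 3 probes. Only at A_30_P01019221 did all 3 knockout arrays exceed all wild-type arrays, as at 18.6% of all probes above background on 6 arrays. The Malat1 probe outside the lincRNA set differed by 1.16 (adjusted p = 0.192).

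TUG1, a transcript needed for development of the retina, differed by 0.26 to 0.70 at 5 probes, and no probe passed. At 4 of them every knockout array exceeded every wild-type array, as at 18.6% of all probes above background on all 6 arrays. The 5 probes measure 1 transcript and are not replicates. Of the Tug1 probes outside the lincRNA set, A_51_P119401 differed by 0.59 (limma adjusted p = 0.231) and A_52_P599162 by 0.38 (limma adjusted p = 0.416). A_55_P2123716, also outside the set, went the other way (-0.82, limma adjusted p = 0.0939). KCNQ1ot1 had 2 member probes, with differences of -0.09 and -1.38. The Kcnq1ot1 probes outside the set were at -1.54 (adjusted p = 0.0968) and -1.75 (adjusted p = 0.0254), so the probes of this transcript disagreed. H19, an imprinted RNA of fetal tissue, had 1 member probe, A_30_P01028827, above background on 3 knockout and 0 wild-type arrays. This probe was at 0.79, -3.64 and -3.21 on the knockout arrays and at -4.91, -5.15 and -5.38 on the wild-type arrays. A single knockout array carried most of its difference (limma adjusted p = 0.166). Of the H19 probes that were not members, A_30_P01021588 was well above background on 0 knockout and 0 wild-type arrays. Every knockout array exceeded every wild-type array there, as at 19% of all tested probes with values on 6 arrays. The groups overlapped at the rest of the H19 probes that were not members.

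Of the intervals that were higher in the knockout, chr5:23195569-23218551 on the R strand had the most calls. Of its 7 probes 4 were members, and all 4 were called. A_30_P01019583 there was at 1.53, 1.38 and 1.58 on the knockout arrays and at -1.21, -1.55 and -1.33 on the wild-type arrays. It differed by 2.86 ± 0.20 SE (limma adjusted p = 0.00264), and it passed under every alternative run. The 3 other members differed by 2.56 to 3.75, and 2 of the 4 passed with the slide as a block.

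The interval chr3:65729664-65731697 on the R strand was also higher at all 3 of its members. A_30_P01019383 was at 0.00, 0.47 and 0.46 on the knockout arrays and at -2.19, -2.19 and -1.76 on the wild-type arrays, a difference of 2.36 ± 0.24 SE (limma adjusted p = 0.00636). A_30_P01030920, at chr12:4133875-4243375 on the R strand, was the only member among the 5 probes of its location. It differed by 5.36 ± 0.60 SE (limma adjusted p = 0.00868). It was at 2.91, 1.03 and 1.52 on the knockout arrays and at -2.57, -3.90 and -4.16 on the wild-type arrays. The F-strand member of the same interval differed by -1.24 and did not pass. The 12 largest rises also held 2 probes of 1 location on chromosome 18 (differences 3.53 and 3.39).

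Among the intervals lower in the knockout, chr1:75075500-75102200 on the R strand had all 4 members called, with differences of -2.43 to -2.80, and all 4 passed with the slide as a block. A_30_P01019493 was at -3.68, -3.16 and -3.12 on the knockout arrays and at -0.59, -0.82 and -0.28 on the wild-type arrays (limma adjusted p = 0.00464). It passed under every alternative in which it was tested. At chr4:131734714-131742542 on the F strand all 5 members were called, within the narrow range of -1.70 to -1.96, and 3 of the 5 passed with the slide as a block.

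At chr5:74487385-74497428 on the F strand 5 of 9 members were called, 3 of the 9 passed with the slide as a block, and the 9 differences ran from -2.72 to -0.01. A_30_P01020357 was at -0.22, -0.24 and -0.31 on the knockout arrays and at 1.74, 1.95 and 2.08 on the wild-type arrays (difference -2.18 ± 0.19 SE, limma adjusted p = 0.00433). A_30_P01032580 of the same interval was at 1.53, 1.18 and 1.29 against 1.41, 1.41 and 1.20, so its groups overlapped. Probes of this interval thus differed in size of response by more than their standard errors.

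The interval chr17:15100982-15115630 on the R strand was lower at all 3 members, all of which passed with the slide as a block. A_30_P01027464 was at -5.22, -4.47 and -4.95 on the knockout arrays, where it was not well above background, and at -2.04, -1.80 and -1.97 on the wild-type arrays, at least 3.46-fold lower (limma adjusted p = 0.00400). At chr10:8606683-8665783 on the R strand 3 of 5 probes were members, and they differed by -2.48, -2.65 and -4.08. The last of these, A_30_P01027369, lacked a value on wild-type replicate 2, so its group mean rested on 2 arrays. The F-strand member of this chromosome 10 interval differed by 2.07 and did not pass.

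The largest fall was at chr14:115443612-115445950 on the F strand. This interval was not matched to an annotation here, so whether its probes measure a gene named elsewhere in the text is not known. A_30_P01033133 was at -3.53, -5.52 and -5.66 on the knockout arrays and at 0.08, -2.53 and 0.02 on the wild-type arrays. It was at least 7.55-fold lower (limma adjusted p = 0.0481), and wild-type replicate 2 was below the other wild-type arrays at all 3 members of the interval. Its adjusted p was 0.0569 with the slide as a block.

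**Figure D3:**
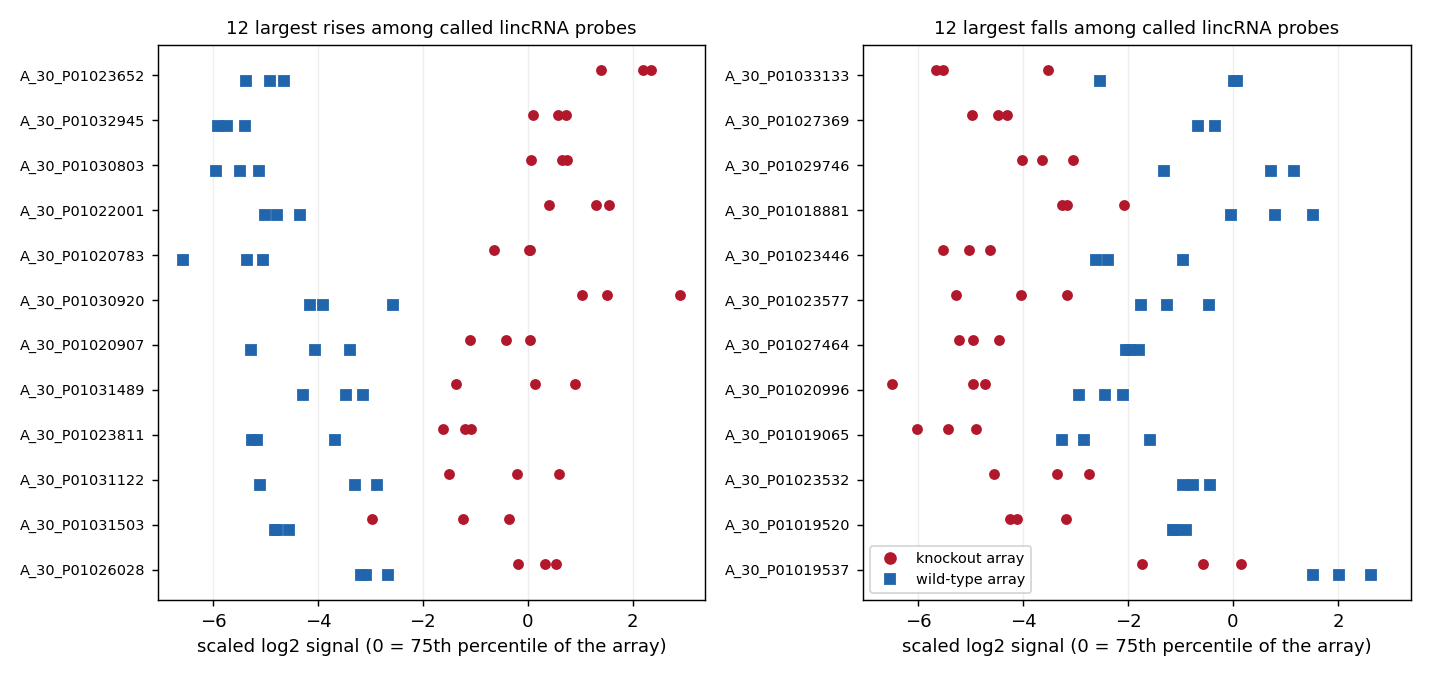
Scaled log2 signal (x axis) of the 12 lincRNA probes with the largest rise (left) and the 12 with the largest fall (right) among those past the threshold, with knockout arrays as circles and wild-type arrays as squares. The groups do not overlap in either panel, and the 5 uppermost probes on the left are those of XIST.

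The 194 calls lay at 131 locations. At 97 of these a single member was called, and the 34 locations with at least 2 calls held the remaining 97. No location held calls of both directions. Of the 86 called locations with at least 2 members, 70 had all members of 1 sign, beside 554 of all 890 locations with at least 2 members. Called locations were picked for large differences, so the 2 counts are not a test of agreement. The SD of the difference within a location was 0.52, against 0.88 over all members of locations with at least 2. Probes of 1 location share an interval and are not replicates. When the members of each location were averaged before the fit, an alternative chosen after the data were seen, 88 of 2110 locations passed (4.17%, beside 4.5% of all features), 37 higher (1.75%, beside 2.96%) and 51 lower (2.42%, beside 1.55%).

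Chromosome 17 held the most calls, with 38 of its 283 members (13.4%), 35 of them lower. The other probes on chromosome 17, placed by RefSeq chromosome, were called in 5.17% of cases. Overlapping intervals within chr17:39960567-39992817 accounted for 14 of the 38, 9 on the R strand and 5 on the F strand, all lower. The interval was not matched to an annotation here, so which transcript its probes measure is not known. It held bright probes, such as A_30_P01026106 at 1933 to 10363 signal units. A_30_P01021775 there was at 2.16, 2.36 and 2.06 on the knockout arrays and at 4.74, 3.92 and 4.22 on the wild-type arrays. None of the 14 passed with the slide as a block. Outside that interval 24 of 263 members of chromosome 17 passed (9.13%).

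The next largest cluster on chromosome 17 was chr17:24152225-24169870 on the R strand. There 5 of 8 members passed, all 8 had every wild-type array above every knockout array (as had 15.8% of lincRNA probes and 10.6% of all probes with values on 6 arrays; 29.6% of all probes were separated in either direction, and 9.38% of those above background on all 6 arrays had the wild type above), and 0 passed with the slide as a block. At chr17:12941161-12944859, which has no strand in the files, 1 of 5 members passed, and all 5 had separated groups with differences of -1.32 to -1.91. Chromosome 19 had 0 calls among 93 members, beside 5.01% of its other probes. On chromosome 10, which carries Mmp19, 10 of 154 members passed (6.49%, beside 5.86% of its other probes), 4 higher and 6 lower. On the X chromosome 3 of 117 passed (2.56%, beside 6.17% of its other probes), not counting the XIST probes, which have no interval in the files.

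**Figure D4:**
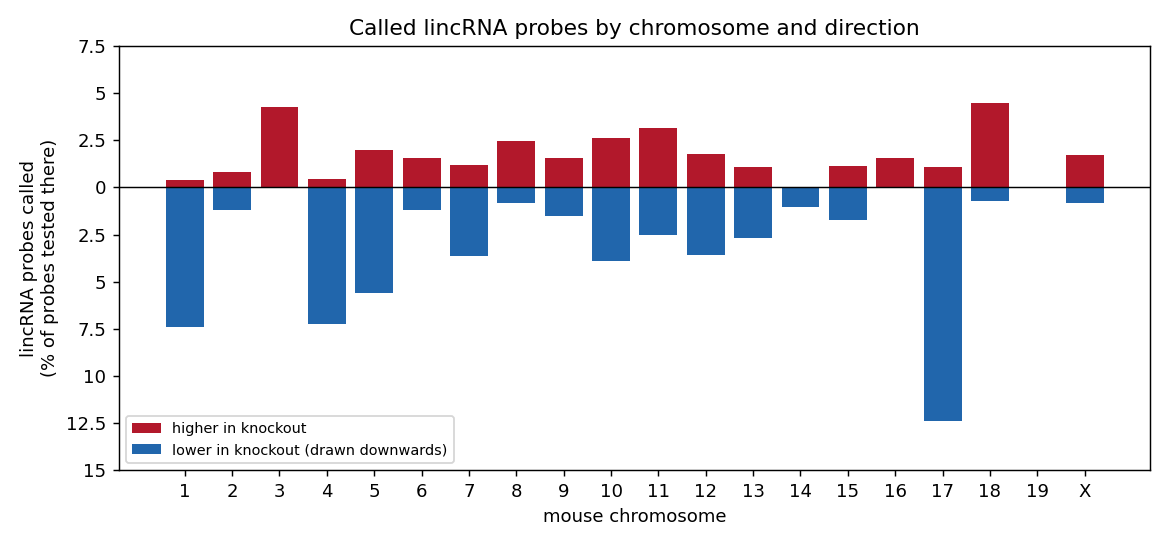
Percent of lincRNA probes tested on each chromosome that passed an adjusted p of 0.05 (y axis), drawn upwards for higher in the knockout and downwards for lower. Chromosome 17 has the longest downward bar, and chromosome 19 has none in either direction.

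On 652 pairs of overlapping locations, members were present on both strands, and 80 pairs held a call. In 9 pairs a member was called on each strand. These pairs include nested intervals that share members, and they lay in 5 separate regions, in 4 of which the calls on both strands had the same direction. The exception was chr4:131734714-131742542, where the F strand was lower at 5 members and the overlapping R-strand interval chr4:131737612-131738100 was higher at 1 of 2 members. Of the 339 pairs with the same interval on both strands, 172 had medians of the same sign. At chr17:46972160-46997919 only 2 of 10 R-strand probes were members, A_30_P01018881 (difference -3.59) and A_30_P01029719 (-1.84), and both were called. On the F strand 5 of 9 probes were members and 1 was called, and the median difference was -0.29. Probes of opposite strands can be told apart only as far as the strand suffixes in the files hold.

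**Figure D5:**
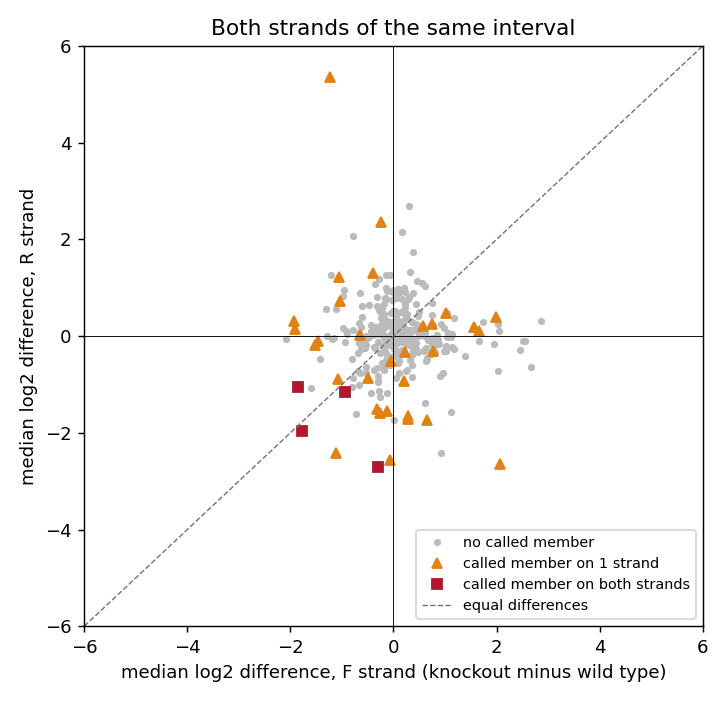
Median log2 difference of the F-strand members (x axis) against that of the R-strand members (y axis) for the 339 intervals with members on both strands, marked by whether called members lay on neither, 1 or both strands. Medians of the same sign are seen in 172 of the 339 intervals.

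Near the threshold, the called probes A_30_P01031122, A_30_P01025128 and A_30_P01030500 differed by 3.39, -1.38 and 1.26. The uncalled probes nearest to it, A_30_P01031521, A_30_P01030358 and A_30_P01028043, differed by 0.89, -1.39 and 2.11. At the detection limit, 695 members were above background on all 3 arrays of 1 group and 2 of the other, with a median mean signal of 39.7 units. Outside it, 511 probes were above on 2 of 3 arrays in both groups, with a median mean signal of 27.0 units.

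Long noncoding RNA genes measured by other probes were taken from a list of 99. With 1 probe standing for each gene, 1 of the 28 tested was higher and 2 were lower, beside 2.88% and 1.77% of all probes. The median difference was 0.09, beside 0.07 over all probes. Kcnq1ot1 was counted as uncalled here on A_55_P2408415, while its other probe A_55_P2196922 was called lower. The higher one was Xist. Mir17hg, the host transcript of a cluster of growth-related microRNAs, was at -3.22, -5.10 and -4.24 on the knockout arrays and at 1.01, -1.43 and 0.69 on the wild-type arrays, at least 14.1-fold lower (limma adjusted p = 0.0286). Snhg3, a host of small nucleolar RNAs, was at -1.91, -3.05 and -2.49 against 0.54, -1.01 and 0.28 (limma adjusted p = 0.0408).

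Proteins that process or bind noncoding RNA were represented by 54 tested genes, with a median difference of -0.22, beside 0.07 over all probes. None was higher and 2 were lower, beside 2.88% higher and 1.77% lower among all probes (4.65% in all). Exosc9, a subunit of the RNA exosome that degrades noncoding transcripts, was at 3.21 ± 0.14 (SD, n = 3) on the knockout arrays and at 4.49 ± 0.30 (SD, n = 3) on the wild-type arrays (limma adjusted p = 0.0315). Rbbp4, a histone-binding subunit shared by several chromatin complexes, was at 3.58, 3.87 and 3.73 against 4.63, 4.84 and 4.73 (limma adjusted p = 0.0380). Neither passed with the slide as a block.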

How the data were processed

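The 6 scanner tables hold spot intensities that the authors deposited. Per the file headers, Agilent Feature Extraction 10.7.3.1 made the processed intensity and the detection flags on a design annotated to mm9. The submitters' processing notes name version 9.1. A second deposited table, of log2 values, covers 35844 probes and 0 lincRNA probes, so it served as an alternative for other genes only.

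Control spots and outlier-flagged spots were left out, repeated spots were averaged, and each array's 75th percentile of log2 processed intensity was subtracted. The contrast was fitted in R 4.3.3 with limma 3.58.1 (lmFit, then eBayes; two-sided). Benjamini-Hochberg adjustment covered 24242 probes, and the threshold was 0.05. The fit was tested on simulated data. Where labels do not say that samples came from separate animals, p measures the spread between these samples, and 3 arrays a group limit the precision.

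The probes and gene lists were chosen with earlier results of these data known. Named probes were the 12 largest rises and falls among the calls, the 6 locations with most calls, 6 strand pairs, the 6 probes nearest to the threshold, and up to 4 called genes of each list. The bins of signal, merged intervals, Y-linked genes and location means were chosen after the values were seen. Features named outside this rule, such as NEAT1, TUG1 and H19, were named after their values were seen.

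Several settings were run before 1 was used. A repeated probe counted as above background where at least 50% of its spots were, with flags as deposited; 6 such rules gave 24203 to 24263 tested probes with 1113 to 1132 calls, and 3776 to 3784 lincRNA probes with 192 to 194 calls. For a probe not above background in 1 group, "at least" sets the bright mean against the higher of the dim signal and the array's lowest signal among probes with all spots above background. This floor replaced one over probes with at least 50% of spots above background, which gave 6.31-fold in place of 5.33-fold for Mmp19. Array weights were first estimated by limma's default method, which stopped without converging, and then gene by gene, and both are reported.

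Each slide held both arrays of 1 replicate number, so the slide block and the replicate block are 1 fit. Over all probes, arrays of the same number had correlated deviations of 0.096, -0.020 and 0.210, and they were therefore not taken as pairs. Other probes were named by RefSeq accession (GRCm38.p6; 26413 matched).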

Additional observations from a re-analysis of the deposited data

How the results depend on the processing

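Of 194 lincRNA calls (65 higher, 129 lower), quantile and loess normalization, both scalings to detected probes, the robust trended prior and keeping outlier-flagged spots left counts within 1.5 times. Normexp gave 77 (17 higher, 60 lower), probes on all 6 arrays 80 (21, 59), probes on at least 3 arrays 123 (40, 83), no filter 13 (9, 4), and the replicate block 58 (19, 39). Location means, added after seeing the data, gave 88 (37, 51). Limma's default array weights, which stopped without converging, gave 2419 (1274, 1145), with weights of 10.19 and 12.05 on 2 arrays and 0.160 to 0.384 on the others. The gene-by-gene weights, added after that output was seen, gave 978 (421, 557). Leaving out 1 array gave 17 (without wild-type replicate 3) to 246 calls (without wild-type replicate 2), 7 to 71 higher and 4 to 175 lower; without knockout replicate 3 it gave 18. For all probes (1127) the counts were 634 with normexp, 656 on all 6 arrays, 113 with no filter, 14840 and 5947 with the default and gene-by-gene weights, 390 with the replicate block, and 108 to 1722 without 1 array. Of the known noncoding genes (3 calls), 1 passed with normexp, on all 6 arrays and with no filter, 22 and 9 with the weights, and 1 to 3 without 1 array. Of the machinery genes (2 calls), 1 passed with normexp and on at least 3 arrays, 0 with no filter and with the replicate block, 39 and 8 with the weights, and 0 to 5 without 1 array. Mmp19 was at -1.40 (adjusted p = 0.0758) with normexp and -4.62 (0.0551) with no filter, and between -5.31 and -4.24 without 1 array. The causes were not tested. Normexp as run adds an offset, and the run with no filter adjusts over more probes, but the part of either in these counts was not tested.

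Among the named features, 3 uncalled probes changed sign: A_30_P01024700 (0.049 with default weights), A_30_P01031857 (-0.44 to 0.14 without 1 array) and A_30_P01032580 (0.083 and 0.049 with default and gene-by-gene weights, 0.0084 with outlier-flagged spots kept, and -0.11 to 0.067 without 1 array). Of 68 called features, 11 stayed past the threshold under every alternative run on them. The planned comparison with neighbouring genes was not run, since gene probes carry no mm9 position here, and the authors' log2 table gives no lincRNA value. Dim probes limit these results: 55.9% of lincRNA probes were above background on no array.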
